A study of Mus musculus with 30 samples.

Results

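Fragments of the mitochondrial tRNAs for glycine (mt-Tg) and arginine (mt-Tr) were followed through 30 small RNA libraries of mouse cortex. A member was any sequence of 15 to 45 nt that matched, over its whole length and in the sense direction, the GENCODE vM21 transcript of either tRNA with CCA added at its 3' end. Of 2604 sequences of this length range that the pair of RNAs could give, 1672 were seen at least once, 1004 from mt-Tg and 668 from mt-Tr. They held 2618709 of the 1487695334 reads in all libraries, 2349557 from mt-Tg and 269152 from mt-Tr, and the genes are 2 of the 22 mitochondrial tRNAs.

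Mitochondrial tRNAs are cut out of long polycistronic transcripts that also carry the respiratory chain mRNAs, receive a CCA tail that the genome does not encode, and carry modified bases, including methyl groups at the junction after the acceptor stem. When a tRNA is cut, the pieces (mt-tsRNAs) include 5' fragments, 3' fragments that keep the CCA end, and internal fragments with neither end. Cuts in the anticodon loop split a tRNA into a 5' and a 3' part, and methyl groups or unusual RNA ends on a piece can keep it out of a standard small RNA library.

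The study compared the cortex of 6-month-old hemizygous 5xFAD mice, here AD, with that of wild-type littermates, here WT, both on the C57BL/6J background and of both sexes. The 5xFAD mouse carries human amyloid precursor protein and presenilin transgenes with familial Alzheimer's mutations, expressed in neurons. Each genotype was sequenced by traditional-seq, a standard adapter-ligation small RNA library, and by PANDORA-seq, in which the RNA was first treated with T4PNK, which repairs RNA ends, and AlkB, which removes several base methylations. There were 7 WT and 7 AD traditional-seq libraries with 9370669 to 17053412 reads, and 8 WT and 8 AD PANDORA-seq libraries with 54926347 to 105876141 reads. All groups came from RNA of 15 to 50 nt excised from a gel. Reads reached 42 nt in traditional-seq and 45 nt in PANDORA-seq, so protocols were compared over 15 to 40 nt and reads of 43 to 45 nt were described in PANDORA-seq alone. A level is given in RPM, reads per 1000000 of all reads in the library. In traditional-seq, 10 of 10 brain miRNA hairpins were found, and their summed level ran from 87659 to 291876 RPM. Sums of markers of other tissues ran up to 754.6 RPM for 1 liver hairpin, 7876 for 4 muscle hairpins, 8821 for 1 endothelial hairpin, 264.5 for 1 of red blood cells and 59.5 for 2 of white blood cells. In PANDORA-seq the brain sum ran from 1674 to 6897 RPM, and the highest of the others was 258.1 RPM, for liver. The pair of tRNAs was chosen by earlier results of the PANDORA-seq comparison of AD with WT, so values of that comparison are a description, and calls from a fit over all sequences are given for it only to show what entered the choice. In bulk tissue, fewer cells of a type and less RNA per cell cannot be told apart.

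mt-Tg (ENSMUSG00000064359.1) lies at chrM:9391-9458 and mt-Tr (ENSMUSG00000064361.1) at chrM:9808-9875 on the plus strand of GRCm38. mt-Tg fills the gap between mt-Co3 and mt-Nd3, subunit genes of cytochrome c oxidase and of complex I, and mt-Tr sits between mt-Nd3 and mt-Nd4l, another complex I subunit. Each is encoded by 68 bases and is 71 bases long with CCA. The mature sequences are shown as DNA letters because every position below counts along them from base 1 at the 5' end. Capitals mark the anticodon loop, bases 29 to 35, with the anticodon at bases 31 to 33.
mt-Tg: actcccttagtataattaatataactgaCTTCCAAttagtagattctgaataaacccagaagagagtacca
mt-Tr: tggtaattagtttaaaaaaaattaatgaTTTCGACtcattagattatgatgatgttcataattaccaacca

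The fragments that led each protocol and length range are shown next, because the protocols read different pieces of the same RNA. The order is by mean RPM over WT and AD together. By AD median it differed for mt-Tg at 43 to 45 nt. Capitals again mark anticodon-loop bases.
mt-Tg 26 to 47, first in traditional-seq: tgaCTTCCAAttagtagattct
mt-Tg 32 to 69, first in PANDORA-seq at 15 to 40 nt: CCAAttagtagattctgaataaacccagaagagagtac
mt-Tg 32 to 70, the second in PANDORA-seq at 15 to 40 nt: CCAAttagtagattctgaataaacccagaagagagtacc
mt-Tg 27 to 70, first in PANDORA-seq at 43 to 45 nt: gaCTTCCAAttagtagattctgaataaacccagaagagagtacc
mt-Tr 27 to 48, first in traditional-seq: gaTTTCGACtcattagattatg
mt-Tr 24 to 52, first in PANDORA-seq at 15 to 40 nt: aatgaTTTCGACtcattagattatgatga
mt-Tr 1 to 39, the second in PANDORA-seq at 15 to 40 nt: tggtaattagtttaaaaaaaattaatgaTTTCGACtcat
mt-Tr 1 to 44, first in PANDORA-seq at 43 to 45 nt: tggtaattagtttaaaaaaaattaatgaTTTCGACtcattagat
The traditional-seq leaders shown are short internal pieces that begin just before the anticodon loop. The PANDORA-seq leaders of mt-Tg shown are longer pieces of the 3' part that stop inside the CCA tail, and those of mt-Tr include pieces from its 5' end. Of the other mt-Tg leaders named below, 34 to 70, 31 to 69 and 26 to 70 stop inside the tail. Fragments 32 to 66 and 26 to 68 stop before it.

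Both RNAs, which have the same length, were read at overlapping levels in traditional-seq, and mt-Tr was far lower in PANDORA-seq while mt-Tg was not. In traditional-seq, mt-Tg ran from 669.2 to 2111 RPM in WT (median 837.7) and from 533.4 to 1942 RPM in AD (median 1088). mt-Tr ran from 906.3 to 1961 RPM in WT (median 1312) and from 561.9 to 2520 RPM in AD (median 1185). The ranges of the RNAs and of the genotypes overlapped throughout. In PANDORA-seq, mt-Tg ran from 250.2 to 1916 RPM in WT (median 826.2) and from 227.0 to 3011 RPM in AD (median 800.1). mt-Tr ran from 8.93 to 47.6 RPM in WT (median 18.01) and from 5.79 to 45.2 RPM in AD (median 18.2). Every PANDORA-seq library was below every traditional-seq library for mt-Tr, while the mt-Tg ranges overlapped.

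**Figure D1:**
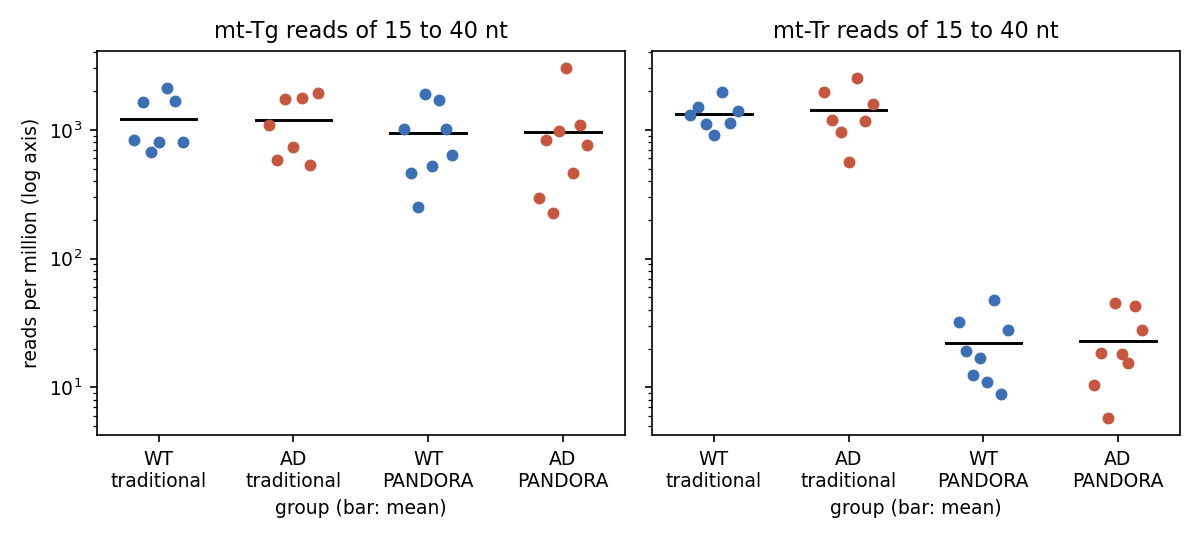
Level of mt-Tg (left) and mt-Tr (right) in reads of 15 to 40 nt, in RPM on a log axis, with 1 point per library and a bar at the group mean. mt-Tg sits between 227.0 and 3011 RPM in all 4 groups, whereas mt-Tr falls from 561.9 to 2520 RPM in traditional-seq to 5.79 to 47.6 RPM in PANDORA-seq.

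On the log2(RPM + 0.1) scale, mt-Tr was lower in PANDORA-seq by a difference of -6.08, a 67.8-fold lower level (4.25 ± 0.88, SD, n = 16, against 10.34 ± 0.54, SD, n = 14; permutation test with 100000 shuffles, two-sided, p = 1e-05, the smallest these shuffles can give, adjusted p = 2e-05 over 12 comparisons). The difference for mt-Tg was -0.55 (9.53 ± 1.05 against 10.08 ± 0.71; permutation p = 0.109, adjusted p = 0.118) and did not pass. This direction depended on the scale. As a percent of all mitochondrial tRNA reads, mt-Tg was higher in PANDORA-seq by 1.05 on the log2 scale (adjusted permutation p = 0.000547), and mt-Tr was still lower, by a difference of -4.49. With 1 mismatch allowed, mt-Tg was lower by a difference of -0.78 (adjusted permutation p = 0.0293). Among the other 20 mitochondrial tRNAs, the same log2 difference in RPM had a median of -2.46 and ran from -5.87 to 2.25, so mt-Tr stood at the bottom of all 22 and mt-Tg 8th from the top. The next lowest, mt-Tf at -5.87, was nearer to mt-Tr than the SD of mt-Tr in either protocol. Its mean in PANDORA-seq was 0.755 RPM, where the added 0.1 weighs on the ratio. mt-Tg stood next to mt-Tt at -0.54. The study gives the libraries of a protocol as separate mice. Each of the 14 traditional-seq libraries carries a submitters' code that a PANDORA-seq library of the same genotype also carries. The labels do not say whether the protocols shared mice. These tests treated all libraries as independent and did not use that link.

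Per base of mature length, mt-Tr was the 4th of the 22 mitochondrial tRNAs in traditional-seq (19.4 ± 7.15 RPM per base, SD, n = 14) and mt-Tg the 8th (17.04 ± 8.00). mt-Tr stood between mt-Ty (19.5 ± 10.4) and mt-Tv (18.3 ± 6.84), and mt-Tg just under mt-Te (17.3 ± 5.52), and none of these neighbours differed beyond its spread. The RNA after mt-Tg was mt-Ts1 at 7.10 ± 4.78. In PANDORA-seq, mt-Tg was the 3rd of 22 at 13.4 ± 10.3 RPM per base (SD, n = 16), between mt-Te (25.8 ± 17.96) and mt-Th (11.5 ± 6.11), and mt-Tr the 15th at 0.317 ± 0.188, between mt-Tk (0.421 ± 0.237) and mt-Tl2 (0.294 ± 0.201). These neighbours also overlapped within their spreads.

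In traditional-seq, reads of both RNAs started most often in or just before the anticodon loop. They ended mostly at base 48 for mt-Tr and at several sites for mt-Tg, most often bases 47 and 57. Reads of 22 nt made up 22.1% ± 4.08 of mt-Tg and 29.4% ± 8.44 of mt-Tr (SD, n = 14), a length looked at after the data were seen. For mt-Tg, starts were most frequent at bases 26 (26.9% ± 4.70 of reads), 27 (12.8% ± 2.53) and 29 (8.47% ± 3.17), and ends at bases 47 (34.0% ± 8.03), 57 (18.9% ± 12.98) and 56 (6.10% ± 3.09). For mt-Tr, starts were most frequent at bases 27 (38.3% ± 6.64), 26 (17.2% ± 4.08) and 29 (9.20% ± 1.53), and ends at bases 48 (67.5% ± 15.3), 49 (14.4% ± 8.74) and 51 (4.45% ± 0.833). The start sites of the RNAs were thus within a base of each other, while mt-Tr ended mainly at 1 position and mt-Tg at several. The mt-Tg end at base 57 was the least even, at 6.68% to 52.6% of reads.

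The leading mt-Tg fragment, 26 to 47, ran from 138.1 to 416.3 RPM in WT (median 165.2) and from 84.9 to 485.1 RPM in AD (median 201.5). It held 17.9% ± 4.59 of mt-Tg reads (SD, n = 14). The next were 29 to 47 (5.52% ± 2.56), 27 to 47 (6.09% ± 1.88), 35 to 57 (4.35% ± 4.33) and 34 to 57 (4.003% ± 4.16), ordered by mean RPM. The genotypes overlapped for each of these 5 fragments. The leading mt-Tr fragment, 27 to 48, ran from 130.4 to 777.2 RPM in WT (median 326.1) and from 100.2 to 912.7 RPM in AD (median 312.4), and held 27.9% ± 9.10 of mt-Tr reads. Its other leaders, 26 to 48, 30 to 48, 29 to 48 and 31 to 48, all shared its end at base 48 and held 10.5%, 7.70%, 7.13% and 6.69% of reads on average.

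In PANDORA-seq, mt-Tg reads started most often within the anticodon and ended most often within the CCA tail, though neither site held most of the reads. Base 32, the middle base of the anticodon, was the start of 33.7% ± 12.6 of reads (SD, n = 16), from 13.1% to 50.6% by library, against 0.752% on average in traditional-seq. Bases 33 (7.25% ± 1.85) and 34 (6.98% ± 2.46) came next. Ends were most frequent at base 69, after the first C of the tail (25.2% ± 5.37), base 70, after CC (18.5% ± 7.14), and base 66 (9.84% ± 3.58). The fragment 32 to 69 held 14.03% ± 5.16 of reads and ran from 30.2 to 358.0 RPM in WT (median 100.3) and from 23.4 to 537.8 RPM in AD (median 81.5). The fragment 32 to 70 held 9.51% ± 4.53, from 20.2 to 278.6 RPM in WT (median 52.0) and from 10.6 to 540.7 RPM in AD (median 53.4). The genotypes overlapped for both. The other leaders, 32 to 66, 34 to 70 and 31 to 69, held 3.14%, 2.97% and 3.04% of reads on average.

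For mt-Tr, the PANDORA-seq reads were few and spread over many sites. Starts were most frequent at bases 24 (16.6% ± 6.84), 22 (8.52% ± 3.18) and 27 (8.22% ± 3.64), and ends at bases 52 (13.8% ± 4.05), 47 (9.76% ± 4.05) and 69 (8.68% ± 3.11). The base 48 end that led traditional-seq held 7.26% of reads. The fragment 24 to 52 ran from 0.470 to 2.25 RPM in WT (median 1.26) and from 0.429 to 9.29 RPM in AD (median 1.41). The 5' fragment 1 to 39 ran from 0.141 to 3.20 RPM in WT (median 1.21) and from 0.363 to 1.84 RPM in AD (median 0.796). The genotypes overlapped for both, and the remaining leaders, 5 to 44, 27 to 47 and 22 to 51, were at 1.06, 0.917 and 0.707 RPM on average.

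**Figure D2:**
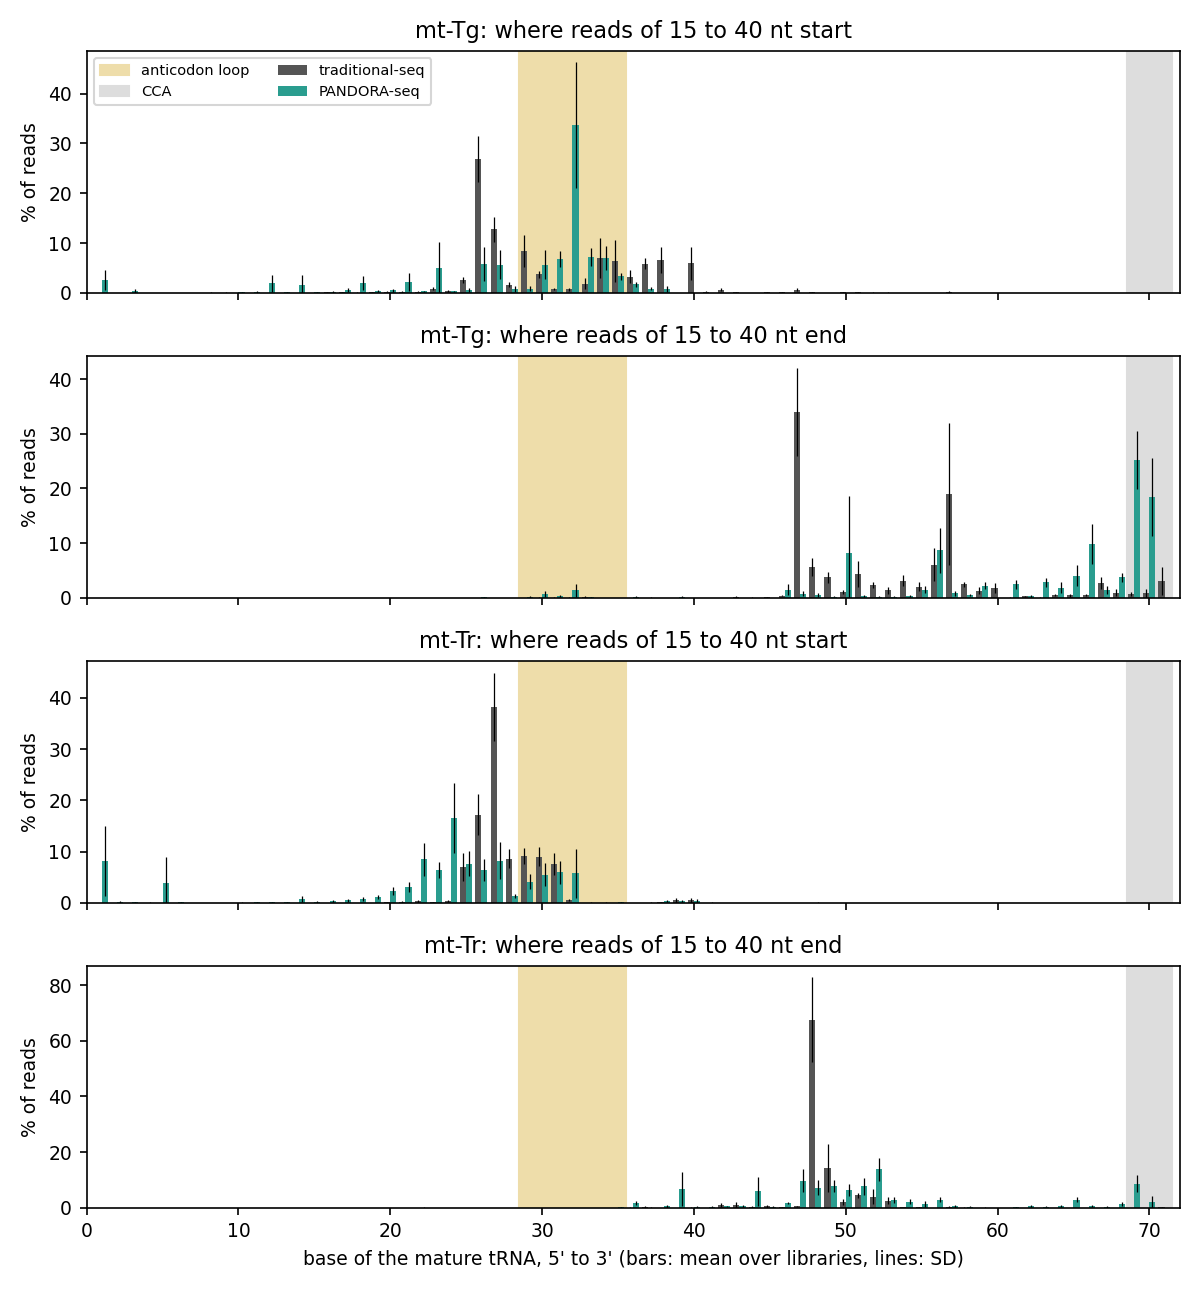
Share of reads of 15 to 40 nt that start or end at each base of mt-Tg and mt-Tr, as the mean over the libraries of each protocol with lines of 1 SD, bases counted from the 5' end and the anticodon loop and CCA tail shaded. In this window the main mt-Tg start was base 26 (26.9%) in traditional-seq and base 32 (33.7%) in PANDORA-seq. The main end was base 47 (34.0%) and base 69 (25.2%). In mt-Tr the end at base 48 (67.5%) gives way to many ends. A read of 15 to 40 nt that ends in the CCA tail cannot start at base 26. That base was the most frequent start of PANDORA-seq mt-Tg reads of 43 to 45 nt (39.3%), which are not drawn.

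The protocols differed in 10 of the 12 measures of level, fragment type and length tested (permutation tests with 100000 shuffles, two-sided, Benjamini-Hochberg adjusted over the 12). The 5', complete CCA and internal shares of an RNA add up to all its reads, so the 12 measures are not independent. Reads were longer in PANDORA-seq, at 35.3 ± 0.669 nt against 23.2 ± 1.17 nt for mt-Tg and 30.1 ± 1.30 nt against 21.8 ± 0.485 nt for mt-Tr (adjusted permutation p = 2e-05 for both, with no overlap between protocols for either). 5' fragments, those starting at base 1, were 2.68% ± 2.02 of mt-Tg reads in PANDORA-seq against 0.0386% ± 0.0469 in traditional-seq (adjusted permutation p = 2e-05). For mt-Tr they were 8.16% ± 6.87 against 0% (adjusted permutation p = 3e-05). None of the 230714 traditional-seq reads of mt-Tr started at base 1, which allows a share of up to 0.00130% over all libraries and up to 0.0421% in the shallowest, for counting error only.

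An end in the anticodon loop, either a start or a stop at bases 29 to 35, was found in 67.3% ± 15.4 of mt-Tg reads in PANDORA-seq, from 30.9% to 90.9%, and in 29.4% ± 8.06 in traditional-seq, from 19.1% to 49.3% (adjusted permutation p = 2e-05). For mt-Tr the share went the other way, at 21.8% ± 6.47 in PANDORA-seq against 26.4% ± 5.18 (adjusted permutation p = 0.0489). That mt-Tr call was close to the threshold and held in 10 of the 30 fits that left out 1 library. When each distinct sequence read more than once in a library was counted once, the mt-Tg difference turned from 37.9 to -3.66 percentage points (adjusted permutation p = 1.50e-05). The protocols differed in depth, and the part of depth in this change was not tested. These shares are of reads of 15 to 40 nt. In that window a mt-Tg read that ends in the CCA tail cannot start at base 26 or 27. Those bases, outside the loop, were the most frequent starts of PANDORA-seq mt-Tg reads of 43 to 45 nt (39.3% and 37.7%). Reads of that length did not enter this comparison, and the part of the length limit in the mt-Tg difference was not tested.

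The 3' ends depended on how the tail was counted. Reads with the complete CCA made up 3.07% ± 2.52 of mt-Tg reads in traditional-seq and 0.0245% ± 0.0131 in PANDORA-seq (adjusted permutation p = 2e-05), and 0.156% ± 0.157 against 0.0366% ± 0.0684 of mt-Tr reads (adjusted permutation p = 0.00476). For mt-Tr the PANDORA-seq median was 0%, on 318 to 4375 reads a library. A count of 0 allows up to 3 reads, so these mt-Tr shares lie near the counting limit. With any of the last 4 bases counted as the 3' end, the order reversed, to 47.4% ± 11.9 of mt-Tg reads in PANDORA-seq against 5.61% ± 3.99, and to 12.2% ± 5.13 of mt-Tr reads against 0.174% ± 0.173 (adjusted permutation p = 1.33e-05 for both). Of the last 4 bases in PANDORA-seq, base 69 was the most frequent end of either RNA at 15 to 40 nt, with 8.68% ± 3.11 of mt-Tr reads, while traditional-seq reads that reached the tail ended most often at its last A. A fragment from base 32 to the full CCA is 40 nt long and so lay within the window. Exact matching left out PANDORA-seq reads of mt-Tg with the substitution A71C at the last base. There were 1235 of these at 15 to 40 nt, against 343 with the exact last base. The internal share, which counts any read without base 1 or the complete CCA, was 97.3% ± 2.02 against 96.9% ± 2.55 for mt-Tg (adjusted permutation p = 0.632) and 91.8% ± 6.87 against 99.8% ± 0.157 for mt-Tr (adjusted permutation p = 3e-05).

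Within the same library, mt-Tr gave the larger share of 5' fragments in PANDORA-seq and mt-Tg the larger share of complete CCA ends in traditional-seq. The 5' share was higher in mt-Tr in 16 of 16 PANDORA-seq libraries (difference mt-Tg minus mt-Tr -5.49 ± 5.14 percentage points, SD; exact sign-flip permutation test, two-sided, adjusted p = 9.16e-05 over 6 comparisons). In traditional-seq, mt-Tr was at 0% in every library and mt-Tg at 0% to 0.160%, with 10 of 14 libraries above 0, and this difference is given without a test because the shares lie near the limit that a count of 0 allows, up to 0.0421% in the shallowest library for mt-Tr. The CCA share was higher in mt-Tg in 14 of 14 traditional-seq libraries (2.91 ± 2.45 percentage points, exact sign-flip permutation adjusted p = 0.000183). In PANDORA-seq the difference in complete CCA ends was -0.0120 ± 0.0647 (exact sign-flip permutation adjusted p = 0.516). There mt-Tg was higher in 11 of 16 libraries and lower in 5, and the mt-Tr median was 0%, near the counting limit. Counting any of the last 4 bases, mt-Tg was higher there by 35.2 percentage points (exact sign-flip permutation adjusted p = 6.10e-05).

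**Figure D3:**
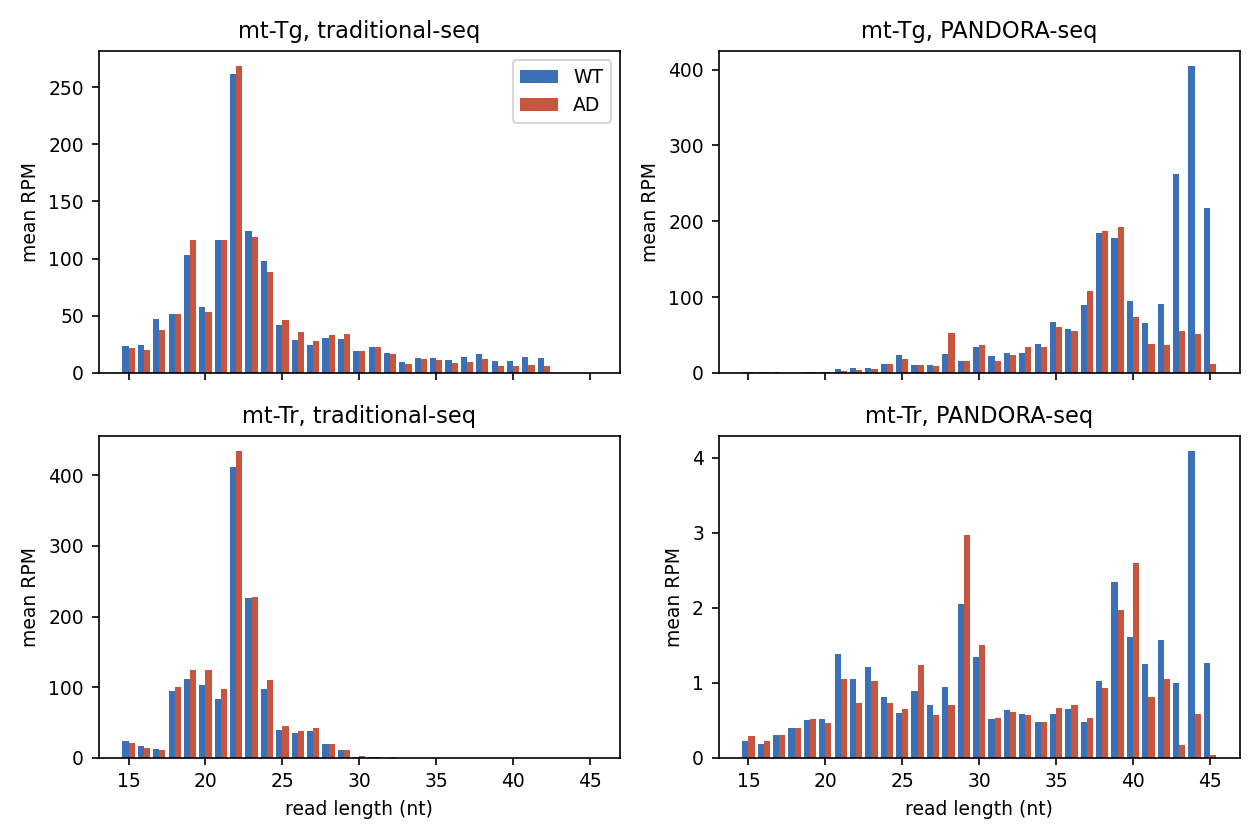
Mean level in RPM at each read length for mt-Tg (top) and mt-Tr (bottom), in traditional-seq (left) and PANDORA-seq (right), with WT and AD side by side and a linear axis of its own in each panel. Traditional-seq peaks at 22 nt for both RNAs, PANDORA-seq of mt-Tg peaks at 44 nt in WT (405 RPM on average) and at 39 nt in AD (193 RPM), and the AD bars at 43 to 45 nt are low.

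Reads of 43 to 45 nt held the longest pieces the files could show. For mt-Tg they were mostly pieces of the 3' part that began in the anticodon stem, at base 26 (39.3% ± 6.73 of reads, SD, n = 16) or 27 (37.7% ± 7.14). They ended in the tail at base 70 (50.4% ± 10.9) or 69 (18.4% ± 2.89), or before it at base 68 (19.4% ± 8.06), the last encoded base. In all, 88.2% ± 6.24 ended within the last 4 bases. Bases 26 and 27 were also the most frequent starts in traditional-seq, where the most frequent end was base 47. Only 0.0401% ± 0.0754 held the complete CCA, where a piece from base 26 to the last A would pass the longest length in the files and one from base 27, at 45 nt, would not. For mt-Tr the most frequent start was base 1, with 48.7% ± 11.95 of reads in WT (31.3% to 66.3%) and 74.1% ± 11.5 in AD (62.9% to 100%; SD, n = 8 each), as a description. Base 5 began 25.4% ± 8.42 in WT and 9.44% ± 6.29 in AD, and base 44 ended 47.1% ± 12.7 and 73.2% ± 11.8. These shares rest on 96 to 1148 mt-Tr reads a library in WT and 2 to 214 in AD.

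The levels of 43 to 45 nt were lower in AD for both RNAs, as a description. mt-Tg ran from 365.4 to 1861 RPM in WT (median 711.4) and from 5.81 to 521.5 RPM in AD (median 56.9), and in 7 of 8 AD libraries it stayed under the lowest WT value. The exception was AD replicate 6 at 521.5 RPM. mt-Tr ran from 1.04 to 13.99 RPM in WT (median 4.64) and from 0.0364 to 2.60 RPM in AD (median 0.685), and again only AD replicate 6, at 2.60 RPM, reached into the WT range. On the log2(RPM + 0.1) scale, AD minus WT was -3.85 for mt-Tg, a 14.4-fold lower level, and -2.81 for mt-Tr, 7.03-fold lower. At 15 to 40 nt the same differences were -0.13 and -0.0026, within the spread of the libraries.

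Reads of this length from any RNA were also a smaller share of the AD libraries. They made up 11.2% to 21.5% of a WT library (median 15.1%) and 2.13% to 10.7% of an AD library (median 4.24%), and these ranges did not overlap. In RPM of the 43 to 45 nt reads alone, mt-Tg was still lower in AD, at 1684 ± 1428 against 5545 ± 2280 (SD, n = 8 each), and mt-Tr at 14.5 ± 8.10 against 40.7 ± 28.51. As a percent of all mitochondrial tRNA reads of 43 to 45 nt, mt-Tg was 32.9% ± 10.7 in AD and 32.5% ± 6.72 in WT, and mt-Tr was 0.331% ± 0.171 and 0.251% ± 0.175. The other 20 mitochondrial tRNAs had a median log2 difference in RPM of -2.43 at this length, from -4.71 to -0.48, and all 20 were below 0. At 15 to 40 nt their median was -0.02 and 11 of 20 were below 0. The part that the lower share of long reads in AD libraries has in the mt-Tg and mt-Tr values was not tested.

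**Figure D4:**
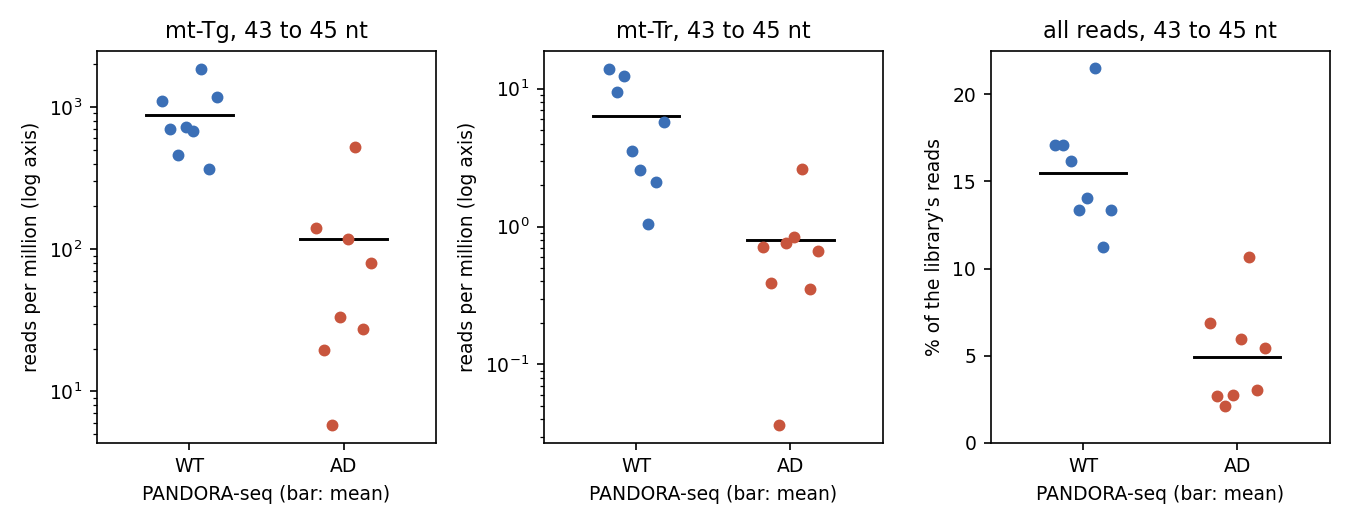
PANDORA-seq reads of 43 to 45 nt by library, as mt-Tg and mt-Tr levels in RPM on log axes and as the percent of all reads of the library on a linear axis, with 1 point per library and a bar at the mean. mt-Tg is at 365.4 to 1861 RPM in WT and 5.81 to 521.5 RPM in AD, and the share of all reads falls from 11.2% to 21.5% in WT to 2.13% to 10.7% in AD.

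By fragment, 27 to 70 of mt-Tg ran from 128.4 to 570.7 RPM in WT (median 235.0) and from 1.37 to 188.1 RPM in AD (median 10.5). Fragment 26 to 70, 1 base longer, ran from 66.5 to 436.1 RPM in WT (median 150.3) and from 0.965 to 59.4 RPM in AD (median 3.15). Fragment 26 to 68, without any tail, ran from 45.1 to 348.1 RPM in WT (median 86.1) and from 0.910 to 66.7 RPM in AD (median 16.9). By AD median it stood above 27 to 70, which led by the mean over both genotypes. The WT and AD ranges were apart for 26 to 70 and overlapped for 27 to 70 and 26 to 68. The share of mt-Tg reads of 43 to 45 nt held by 26 to 70 was 21.6% ± 2.93 in WT and 7.80% ± 4.61 in AD, and that held by 26 to 68 was 12.8% ± 3.09 and 23.3% ± 8.45. These shares are given without a test. For mt-Tr, 1 to 44 ran from 0.294 to 7.81 RPM in WT (median 1.70) and from 0.0364 to 1.82 RPM in AD (median 0.403), with overlapping ranges.

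In the fit over the 20459 distinct sequences of non-coding RNAs that passed the filter in PANDORA-seq, 26 of 314 mt-Tg sequences and 2 of 42 mt-Tr sequences tested were called lower in AD (edgeR quasi-likelihood test, Benjamini-Hochberg adjusted p under 0.05 and fold over 2), against 4.41% of all sequences. None was called higher (0 of 314 and 0 of 42), against 0.142% of all. DESeq2 called 32 of 314 mt-Tg and 2 of 42 mt-Tr sequences lower, against 6.66% of all, and 2 of 314 and 0 of 42 higher, against 0.953%. At 43 to 45 nt, 17 of the 26 mt-Tg sequences tested were called lower, where 43.4% of all sequences of this length were. At 15 to 40 nt, 9 of 263 were, against 0.266%. Both called mt-Tr sequences, 1 to 44 and 5 to 48, were of 43 to 45 nt, where 2 of 2 tested were called. The 9 shorter mt-Tg sequences began at bases 23 to 28 and ended at bases 56 to 61, an example being 26 to 56 at 5.53 RPM in WT and 1.08 RPM in AD. Since these calls entered the choice of the RNAs, nothing is read from the counts. Fitted on 15 to 40 nt alone, 3 of 261 mt-Tg sequences and 0 of 37 mt-Tr sequences were called lower, against 0.101% of all, and none higher (0 of 261 and 0 of 37, against 0.00594%). Fitted and scaled on 43 to 45 nt alone, 11 of 27 mt-Tg and 2 of 3 mt-Tr sequences were called lower, against 25.3% of all, and 1 of 27 and 0 of 3 higher, against 20.5%. At this length the calls over all sequences changed from 807 lower and 0 higher in the joint fit to 468 lower and 379 higher in this one.

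In traditional-seq, whose libraries did not enter the choice, AD and WT could be tested, and no difference passed. None of 134 mt-Tg and 48 mt-Tr sequences was called in either direction, where 0% of 4151 sequences in all were called (edgeR quasi-likelihood test). At an unadjusted p under 0.05 in that test there were 1 of 134 mt-Tg and 0 of 48 mt-Tr sequences, against 29 of 4151 in all. The edgeR likelihood ratio test and DESeq2 also called 0. They put 2 and 1 of 134 mt-Tg sequences under an unadjusted p of 0.05, against 40 and 44 of 4151 in all. The median log2 difference over the sequences tested was 0.07 for mt-Tg and 0.09 for mt-Tr, against 0.01 over all. Summed per RNA at 15 to 40 nt, the fitted log2 difference was -0.01 for mt-Tg and 0.04 for mt-Tr (edgeR quasi-likelihood adjusted p = 0.9995 for both over 659 RNAs), and 0 of the other 20 mitochondrial tRNAs was called, with a median of -0.11 and 0 at an unadjusted p under 0.05.

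The level, fragment types and length of each RNA were compared between the genotypes in the same traditional-seq libraries by exact permutation over all 3432 splits of 7 against 7, which can reach p = 0.000583. The adjusted p was 1 for each of the 12 measures, 1 of which, the mt-Tr 5' share, was 0% in every library and could give no other value. The differences AD minus WT were -0.07 and -0.01 in log2(RPM + 0.1) for mt-Tg and mt-Tr, -1.50 and 1.06 percentage points in anticodon-loop ends, and 0.223 and 0.0699 nt in mean length. Each was smaller than the SD within a group, such as 0.80 among AD libraries for the mt-Tg level and 0.71 for the mt-Tr level.

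Base 9 was read differently from the reference in a larger share of mt-Tg than of mt-Tr reads, as a description. Among PANDORA-seq reads of 18 nt or more that covered base 9 and matched the tRNA at every other base, 27.1% ± 10.4 of mt-Tg reads (SD, n = 16, 858 to 7609 covering reads a library) and 3.80% ± 3.04 of mt-Tr reads (55 to 1908) carried a mismatch there. mt-Tg ran from 4.08% to 43.3% in WT (median 23.3%) and from 20.7% to 40% in AD (median 29.8%), and mt-Tr from 0.186% to 8.51% in WT and from 0% to 10.4% in AD. WT replicate 3 was the lowest for mt-Tg, at 169 of 4138 reads (Wilson 95% interval 3.52% to 4.73%), and it was also the lowest WT library for mt-Tr, at 2 of 1075 reads. The substitution A9G made up 80.8% of the mt-Tg mismatches and 71.8% of those in mt-Tr, and A9T most of the rest, at 18.4% and 25.5%. Traditional-seq reads rarely reached base 9, with 1 to 57 covering reads a library for mt-Tg, of which 221 of 330 in all were mismatched, and 0 for mt-Tr, so the protocols were not compared.

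The last base of a read also differed from the tRNA, in traditional-seq above all, a feature noticed after the data were seen and given without a test. Among reads of 15 to 40 nt with at most 1 mismatch, a mismatch at the last base alone was found in 16.8% ± 7.75 of mt-Tg reads and 6.31% ± 3.18 of mt-Tr reads in traditional-seq (SD, n = 14), from 7.09% to 28.6% and from 2.45% to 11.8%. In PANDORA-seq the shares were 0.550% ± 0.723 and 1.89% ± 3.84 (SD, n = 16). AD PANDORA-seq replicate 1 was far above the others there, at 3.23% for mt-Tg and 15.6% for mt-Tr, and the medians were 0.360% and 0.630%. The substitution C57T made up 42.2% of these mt-Tg mismatches in traditional-seq, and it was found in 30.6% of the reads that ended at base 57 either exactly or with it. G48A made up 70.1% of those in mt-Tr. A single mismatch at another base was found in 5.84% ± 1.402 of mt-Tg reads in traditional-seq and 8.95% ± 0.556 in PANDORA-seq, and in 6.72% ± 3.12 and 9.01% ± 0.930 of mt-Tr reads. Exact matching left all such reads out of the levels above.

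**Figure D5:**
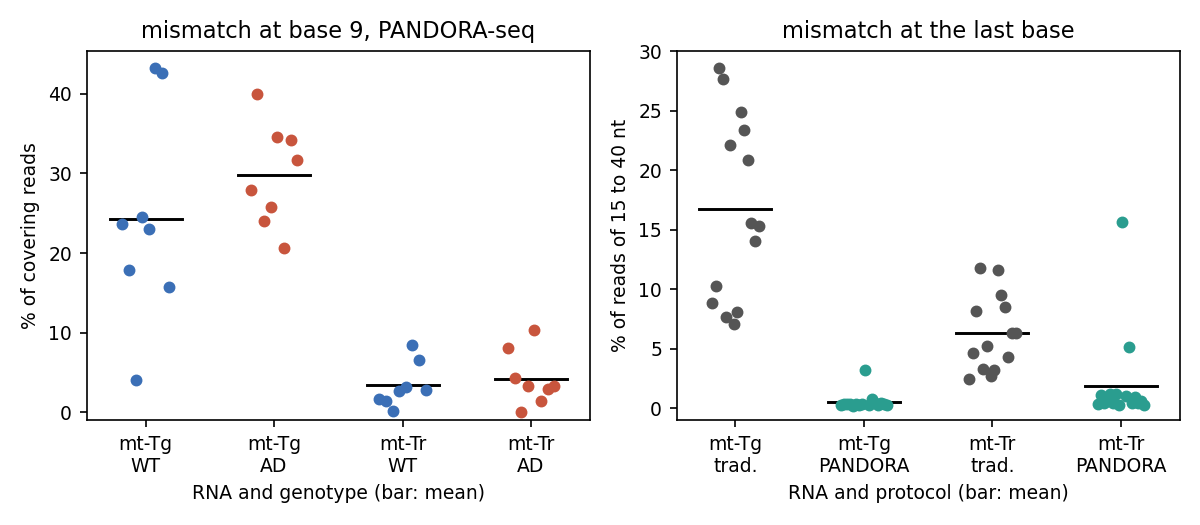
Left, percent of PANDORA-seq reads covering base 9 and matching elsewhere that mismatch there, by RNA and genotype, and right, percent of reads of 15 to 40 nt whose only mismatch is the last base, by RNA and protocol, with 1 point per library and a bar at the mean. mt-Tg mismatches at base 9 average 27.1% against 3.80% for mt-Tr, and last-base mismatches of mt-Tg average 16.8% in traditional-seq against 0.550% in PANDORA-seq.

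Over the libraries of a protocol, the RNAs whose level followed mt-Tg and mt-Tr most closely differed by protocol. Likeness was measured as the SD over libraries of the log2 ratio of RPM + 0.1 at 15 to 40 nt, among the other 21 mitochondrial tRNAs. For mt-Tg these were mt-Tl2 (0.48) and mt-Ta (0.57) over 14 traditional-seq libraries, and mt-Ts2 (0.41) and mt-Ty (0.42) over 16 PANDORA-seq libraries, against medians over the 21 of 0.80 and 0.61. For mt-Tr they were mt-Th (0.47) and mt-Tl2 (0.48) in traditional-seq and mt-Ta (0.33) and mt-Tn (0.46) in PANDORA-seq, against medians of 0.69 and 0.76. All these RNAs share the libraries and their depth.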

How the data were processed

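The authors isolated cortical RNA of 15 to 50 nt, built NEBNext libraries with or without T4PNK and AlkB treatment, and deposited 1 table of distinct sequences per library, with read counts that are neither normalized nor annotated. The labels name the build mm39, which was not used here: sequences were matched exactly, sense, to GENCODE vM21 transcripts (GRCm38). Members, gene lists and tests were chosen with earlier results of these data known. Sequences that also matched another GENCODE transcript held at most 3.08% of an RNA's reads in any library, and nuclear copies outside annotated transcripts were not checked. Distinct sequences exactly matched to 6112 non-coding transcripts (41.2% to 56.2% of traditional-seq and 6.46% to 16.1% of PANDORA-seq reads) were fitted with edgeR 4.0.16 (TMM, quasi-likelihood, minimum count 10), with DESeq2 1.42.0 as an alternative, in R 4.3.3. On simulated counts for the traditional-seq comparison (21119 sequences), 88 of 89 sequences changed 4-fold that passed the filter were called, and 10 of 4329 unchanged ones. The simulation drew independent counts with the same dispersion for every sequence. It checked the fit and does not give the power in the real libraries. Other measures used Python 3.11.15 with numpy 2.4.6 and permutation tests, with Benjamini-Hochberg adjustment. Fragments were named by mean RPM (the leading 5 at 15 to 40 nt for each RNA and protocol, 3 at 43 to 45 nt), cut sites by share of reads (3 starts and 3 ends). Totals were 9370669 to 17053412 reads in traditional-seq and 54926347 to 105876141 in PANDORA-seq. Intervals are Wilson intervals and cover counting error only, since reads carry no molecular identifiers. The submitters' codes that traditional-seq and PANDORA-seq libraries share were used only in an alternative.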

Additional observations from a re-analysis of the deposited data

Results flagged for a closer look

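Summed over the libraries of a protocol, reads outside the sense tRNAs were few but above the 3 reads that a count of 0 allows. Reads running past an encoded end into the neighbouring transcript came to 28 for mt-Tg and 22 for mt-Tr in traditional-seq, and 222 and 162 in PANDORA-seq. They were counted however few of their bases lay in the tRNA, so pieces of the neighbouring mRNAs can be among them. Antisense reads came to 14 and 15 in traditional-seq and 242 and 178 in PANDORA-seq. In single traditional-seq libraries, run-past reads went over 3 in 1 of 14 for mt-Tg and 3 of 14 for mt-Tr, and antisense reads in 1 and 0 of 14. For mt-Tr in PANDORA-seq the sums are 0.421% and 0.463% of the exact sense reads.

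Single libraries stood far from the rest of their group in 15 of 76 groups and measures tested, where chance gives about 1 in 20, and several of these are not independent of each other. WT PANDORA-seq replicate 3 had 5' shares of 9.10% for mt-Tg and 31.1% for mt-Tr, with internal shares of 90.9% and 68.9%. It was also the library with the lowest base 9 mismatch share of mt-Tg. Without it the protocol difference in 5' share was 2.21 and 6.63 percentage points.

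AD traditional-seq replicate 2 had complete CCA shares of 9.89% for mt-Tg and 0.489% for mt-Tr, internal shares of 90.0% and 99.5%, and 0.546% of mt-Tr reads ending in the last 4 bases. AD PANDORA-seq replicate 1 had last-base mismatches of 3.23% for mt-Tg and 15.6% for mt-Tr, and a 22 nt share of 1.25% for mt-Tg. AD PANDORA-seq replicate 7 had the shortest mean length of mt-Tg, 33.4 nt. AD PANDORA-seq replicate 6 had a complete CCA share of 0.156% for mt-Tr, near the counting limit with 1282 reads. WT PANDORA-seq replicate 6 had a 22 nt share of 8.14% for mt-Tr.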

How the results depend on the processing

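Of 268 values recomputed under other settings for 44 results, 233 were counted as unchanged. For results with a test this means the same direction and side of the threshold. Results given as a description have no threshold, and for them an unchanged count does not promise the same direction. For the protocols, mt-Tg level rose to 1.05 as a percent of mitochondrial tRNA reads and passed at -0.78 with 1 mismatch. Counting once each distinct sequence read more than once in a library gave 0.819 and 0.0756 for the internal shares of mt-Tg and mt-Tr. The same count gave -3.66 and 0.127 for anticodon-loop ends. 5' fragments from bases 1 to 3 turned the mt-Tg internal share to -0.0652. Ends in the last 4 bases gave 41.8 and 12.02 for the 3' shares and -44.5 for the mt-Tg internal share, and within libraries 35.2 and -29.8 in PANDORA-seq. In WT alone the mt-Tr CCA share (-0.129) and loop share (-4.22), and in AD alone the loop share (-5.04), no longer passed. The cause was not tested.

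In traditional-seq AD minus WT, where no value passed, signs turned for the levels as percent of mitochondrial tRNA reads (0.12 and 0.18) and mt-Tr with 1 mismatch (0.0256), for distinct sequences (mt-Tg 5' -0.0157, CCA -0.0779, internal 0.0936, loop 1.06, mt-Tr length -0.0530), and for mt-Tg ends in the last 4 bases (-0.0138). In PANDORA-seq at 43 to 45 nt, AD over WT was -0.00771 for mt-Tg as a percent of mitochondrial tRNA reads, and for mt-Tr 0.65 on that scale and -1.36 in RPM of the long reads alone. Lower calls became 52 of 664 and 11 of 295 with a looser filter (2.95% of all sequences), 3 of 261 and 0 of 37 on 15 to 40 nt alone (0.101%), and 11 of 27 mt-Tg on 43 to 45 nt alone (25.3%). mt-Tg calls higher became 2 of 314 with DESeq2 (0.953% of all) and 1 of 27 on 43 to 45 nt alone (20.5%).

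Replicate numbers did not pair the samples (correlations from -0.467 to 0.323 in PANDORA-seq and from -0.401 to 0.414 in traditional-seq). With a replicate block, lower calls were 27 of 314 for mt-Tg and 1 of 42 for mt-Tr in PANDORA-seq (4.96% of all sequences) and 0 in traditional-seq, and the traditional-seq level differences were -0.07 and -0.01.

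With 1 library left out at a time, the protocol difference in mt-Tg level ran from -0.69 to -0.44 and passed once, without PANDORA-seq AD replicate 5 (adjusted permutation p = 0.0394). The mt-Tg internal share ran from -0.122 (without traditional-seq AD replicate 2) to 0.835, and the mt-Tr loop share from -5.62 to -3.75, no longer passing in 20 of 30. In traditional-seq AD minus WT, where the adjusted permutation p stayed at or above 0.920, mt-Tg ran from -0.21 to 0.10 in level, -0.00388 to 0.0228 in 5' share, -0.903 to 0.633 in CCA share, -0.652 to 0.897 in internal share, -3.34 to 1.69 in loop share and -0.226 to 0.511 nt in length. mt-Tr ran from -0.17 to 0.19 in level, -0.0885 to 0.0244 in CCA share, -0.0244 to 0.0885 in internal share, -0.285 to 2.80 in loop share and -0.0637 to 0.210 nt in length. The mt-Tg minus mt-Tr difference in CCA share in PANDORA-seq ran from -0.0161 to 0.000432. Lower calls in PANDORA-seq ran from 2 to 4 of 42 to 45 tested for mt-Tr, and from 19 of 319 to 31 of 323 for mt-Tg. Over all sequences they ran from 801 of 21400 to 1222 of 21193.

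The base 9 comparison of protocols was not run, because only 1 of 14 traditional-seq libraries reached 50 covering reads of mt-Tg and all had 0 of mt-Tr. Low read counts limit mt-Tr in PANDORA-seq most, with 318 to 4375 reads a library at 15 to 40 nt and 2 to 1148 at 43 to 45 nt.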

Other observations

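mt-Tr has a run of 8 A at bases 14 to 21. Of the PANDORA-seq reads spanning it, 10044 (92.4%) held 8 A, 676 (6.22%) held 9 and 105 (0.966%) held 7. The share with 9 A was 5.70% ± 2.16 in WT and 10.4% ± 11.5 in AD (SD, n = 8 each), with medians of 5.54% and 6.56%, from 2.80% to 9.38% and from 2.19% to 37.5%, on 104 to 1964 and 60 to 975 spanning reads. AD replicate 5, at 37.5%, carried the AD mean, which was 6.52% without it. The ranges overlapped. Added bases after CCA were seen in 731 mt-Tg and 59 mt-Tr reads of PANDORA-seq and in 5 and 2 of traditional-seq.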
